A study of Mus musculus with 15 samples.

Results

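The genes described here are 50 genes of mitosis and the spindle checkpoint, taken by symbol from a list that covers mitotic entry, the checkpoint, the kinetochore, anaphase, chromosome structure, the spindle, cytokinesis and the transcription factors that drive them. The deposited gene table holds 55487 genes, of which 16678 passed the filter on low counts and were tested, and all 50 listed genes were found and passed that filter. RNA-seq of polyA RNA was made from cells labelled TTF, which usually stands for fibroblasts of the tail tip, of female hybrids of the mouse strains C57BL6 and CAST. The KO group holds 3 libraries of SIRT7 knockout lines, called KO 2, KO 9 and KO 22 after the numbers of their columns. The WT group holds 3 libraries of cells labelled S7WT, called WT 1, WT 2 and WT 3. SIRT7 is a deacylase of the nucleus and nucleolus, and the title of the series concerns it and dosage compensation of the X chromosome. No treatment, age or passage is given in the labels, and the labels leave unsaid whether the WT libraries are separate animals, cultures or repeats of 1 culture. The p-values therefore measure the spread between libraries, which may be technical. Each KO library stands for its own line, so a difference particular to a line and an effect of the genotype cannot be told apart within it.

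In mitosis, cyclin B and the kinase Cdk1 drive condensation of chromosomes and assembly of the spindle. Kinetochores on the centromeres bind spindle microtubules, and unattached kinetochores send the checkpoint signal that holds back the anaphase-promoting complex (APC/C), the ubiquitin ligase that releases separase to cut the cohesin between sister chromatids. Fibroblasts in culture divide, and transcripts of these genes are known to peak in G2 and mitosis, so their bulk level follows how many cells are dividing as well as how much each cell makes. In bulk RNA, fewer dividing cells and less RNA per dividing cell cannot be told apart.

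Promoters of many mitotic genes are known to carry a cell cycle homology region (CHR, read by the DREAM and MuvB complexes) and CCAAT boxes (bound by NF-Y), and the listed genes were scanned for these letters because they share a peak in the cell cycle. RefSeq promoter windows of build GRCm38.p6, from 250 bases before to 50 bases after the start of transcription, were at hand for 41 of the 50 genes. The CHR was searched as TTTGAA or TTCGAA on both strands, so that TTCAAA is TTTGAA read on the other strand. A CHR lay in the windows of 31 of the 41 genes (75.6%), against 21.7% of all 27025 genes with a window. The distance from the start to the nearest CHR had a median of 23.0 bases, and it was within 60 bases in 28 of the 31 genes. The following stretches of 30 bases, each 5′ to 3′ on the gene's own strand with the CHR nearest the start in capitals, show this element in genes of 6 of the roles described below.
Cdk1, chr10:69352910-69352939, minus strand: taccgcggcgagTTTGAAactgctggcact
Cdc25b, chr2:131186943-131186972, plus strand: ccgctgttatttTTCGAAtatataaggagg
Bub1, chr2:127831828-127831857, minus strand: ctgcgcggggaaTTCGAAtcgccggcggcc
Cenpf, chr1:189688067-189688096, minus strand: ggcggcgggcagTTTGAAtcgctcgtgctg
Cdc20, chr4:118437344-118437373, minus strand: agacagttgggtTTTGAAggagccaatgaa
Espl1, chr15:102296254-102296283, plus strand: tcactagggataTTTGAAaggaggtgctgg
Top2a, chr11:99024195-99024224, minus strand: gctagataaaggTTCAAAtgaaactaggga
Kif11, chr19:37376351-37376380, plus strand: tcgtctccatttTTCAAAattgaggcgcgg

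CCAAT, searched on both strands, lay in the windows of 30 of the 41 genes (73.2%), against 41.1% of all genes, and 17 of the 41 (41.5%) held 2 or more, against 13.3%. Both elements were found together in 27 of the 41 (65.9%), against 8.61% of all genes. The 4 E2F-like motifs searched on both strands (TTTGGCGC, TTTCGCGC, TTTGCCGC and TTTCCCGC) were found in 3 of the 41 genes (7.32%) and in 2.60% of all genes. Forkhead letters (TGTTTAC or TAAACA, both strands) were found in 7 of the 41 (17.1%) and in 15.1% of all genes. The forkhead letters TGTTTAC contain TAAACA read on the other strand, so TAAACA alone fixes the forkhead counts. Otherwise no searched motif contains another, though their ends may overlap. A match describes letters and not a bound site. The 150 bases before the start of Ccnb2, which encodes cyclin B2, are shown with their 3 CCAAT boxes in capitals. Beside them is the same stretch of Mybl2, which encodes the factor B-Myb. The Mybl2 window held no exact match to the searched motifs, and near matches were not searched.
Ccnb2, chr9:70421555-70421704, minus strand: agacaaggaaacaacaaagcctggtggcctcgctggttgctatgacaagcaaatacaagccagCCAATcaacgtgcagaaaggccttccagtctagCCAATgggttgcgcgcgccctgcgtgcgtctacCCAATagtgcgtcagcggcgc
Mybl2, chr2:163054485-163054634, plus strand: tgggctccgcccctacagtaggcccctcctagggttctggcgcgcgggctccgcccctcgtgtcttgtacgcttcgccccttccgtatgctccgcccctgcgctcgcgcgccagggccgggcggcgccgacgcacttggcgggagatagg

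Total counts lay between 61065582 and 61506413 per library. Sirt7 had 512, 694 and 787 counts in KO 2, 9 and 22, against 833, 1107 and 598 in WT 1, 2 and 3, and did not pass the test. Of its protein-coding transcripts, Sirt7-201 had 2, 0 and 0 counts in KO 2, 9 and 22, against 53, 58 and 159 in WT 1, 2 and 3, while a shorter one had 60, 129 and 0 counts in KO 2, 9 and 22, against 118, 11 and 68 in WT 1, 2 and 3. The biological coefficient of variation was 0.378 in the KO group and 0.135 in the WT group. Counts of 9 fibroblast markers summed to 22520 to 27572 CPM (counts per 1000000 gene counts) in KO libraries and 14980 to 15121 CPM in WT libraries. Of the 9, 2 were called higher (Col1a1 and Col1a2), none lower, and the median log2 fold change was -0.0088 (4 positive, 5 negative), and Thy1 had 12 counts in KO 9, against 6058 to 6170 in WT. The part of this difference in the results that follow was not tested. The markers of skin epithelium, endothelium, blood, muscle, cartilage and pluripotent cells each summed to at most 10.2 CPM in any library, with Cdh5, Adgre1, Myod1, Myog and Pou5f1 at 0 in all 6 libraries.

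Of the 50 genes, 1 fell in the KO group, none rose and 49 did not pass the test of knockout against wild type (edgeR's quasi-likelihood test, Benjamini-Hochberg adjusted p under 0.05 over all tested genes). The background was 6.73% of all 16678 tested genes called, 3.19% lower and 3.54% higher, and 7.74% of the 7996 genes within the same range of mean CPM were called, so the share of the listed genes is not above that of other genes. The median log2 fold change of the 50 genes was -0.12, beside 0.02 over all tested genes, with 37 of them negative and 13 positive. At an unadjusted p under 0.05 there were 10 of the 50, beside 26.3% of all genes: Cdc25b, Espl1, Incenp, Kif11, Mybl2, Ncapd2, Prc1 and Racgap1 with a negative fold change, and Ccnb1 and Ccnb2 with a positive one. All KO libraries were below all WT libraries for 16 of the 50 genes (20.2% of all tested genes), and all were above for 2, Ccnb1 and Ccnb2 (15.7% of all tested genes). Neither DESeq2 nor limma-voom called any of the 50 higher.

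**Figure D1:**
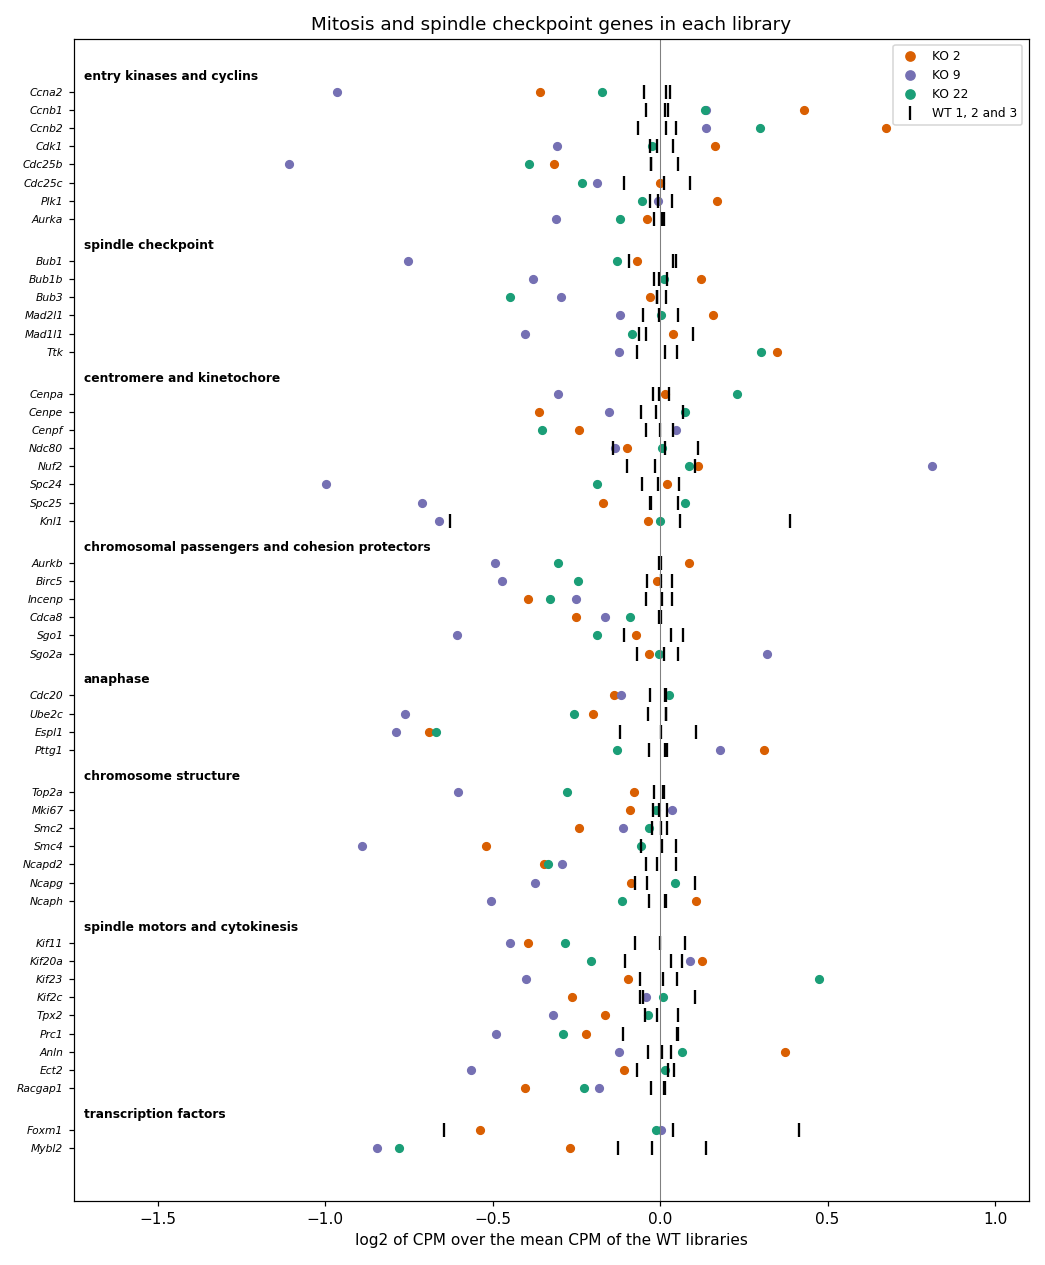
Level of each of the 50 genes in each library, as log2 of its CPM over the mean CPM of the WT libraries, grouped by role; coloured points are KO 2, KO 9 and KO 22 and black ticks are the WT libraries. The ticks stay close together for most genes, the points of KO 9 lie farthest left in 31 of 50 genes, and Espl1 has all 3 KO points together to the left.

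The gene that fell was Espl1 (ENSMUSG00000058290, chr15:102296266-102324357, plus strand, GRCm38), which encodes separase, the protease that opens the cohesin ring at anaphase. It had 111, 103 and 112 CPM in KO 2, 9 and 22, against 192, 164 and 179 CPM in WT 1, 2 and 3. The KO libraries lay close to each other and below every WT library. Its mean was 109 ± 4.78 CPM in the KO group and 179 ± 14.1 CPM in the WT group (SD, n = 3 each), 0.609 times the WT mean, with a log2 fold change of -0.68 (SE 0.098, edgeR adjusted p = 0.018). The other genes of chromosome 15 had a median log2 fold change of -0.23, and with the median of each chromosome taken out Espl1 was at -0.43 (adjusted p = 0.062, limma). The call was also lost in edgeR without WT 1 (adjusted p = 0.113), without WT 2 (0.0797) or without WT 3 (0.117), fits that called 45 to 51 genes in all, and it held without each KO line.

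Espl1 was also read by allele, since the authors split reads over strain differences into genome 1 and genome 2. The sources used here do not say which of the strains each genome is. Genome 1 gave 1169, 1301 and 970 counts of Espl1 in KO 2, 9 and 22, against 2373, 2046 and 2229 in WT 1, 2 and 3. Genome 2 gave 1413, 1068 and 1725 counts in KO 2, 9 and 22, against 1858, 1577 and 1665 in WT 1, 2 and 3. The genome 1 counts of the KO libraries lay below all WT libraries, while the genome 2 counts of the groups overlapped. The allelic ratio itself did not pass its test, described further on (log2 ratio of KO over WT -0.66, SE 0.29, edgeR adjusted p = 0.17), but passed it without KO 9 (-0.93, edgeR adjusted p = 0.019). Securin (Pttg1), the inhibitor that holds separase until anaphase, had 104, 94.7 and 76.5 CPM in KO 2, 9 and 22, against 81.7, 84.8 and 84.4 CPM in WT 1, 2 and 3, and the groups overlapped.

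**Figure D2:**
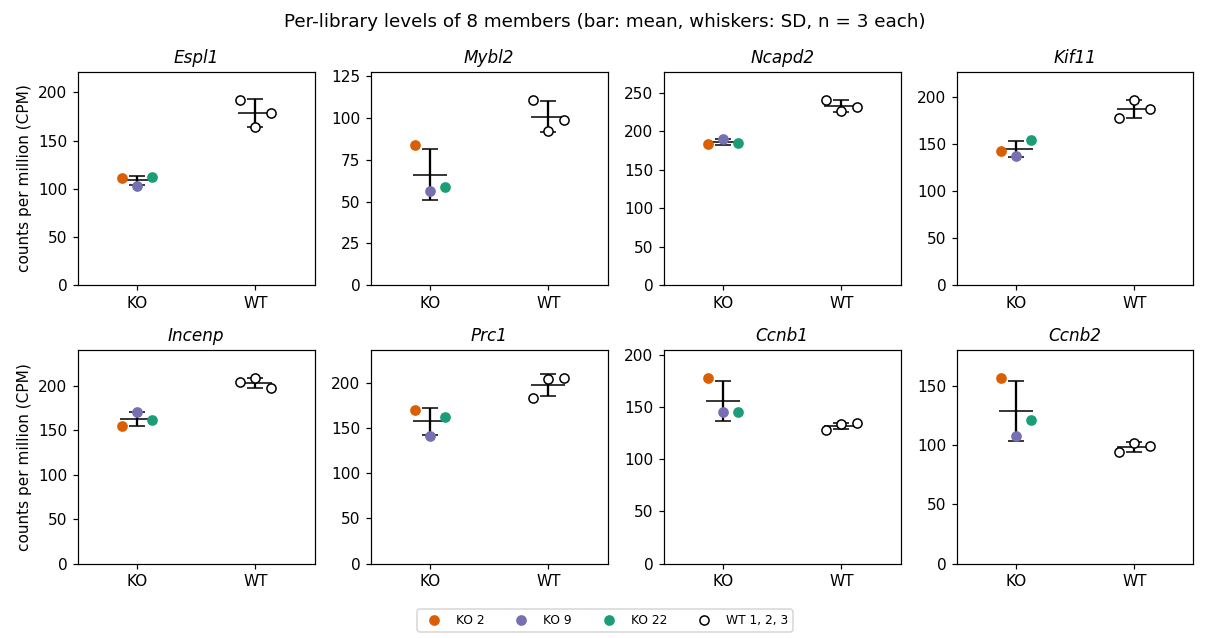
CPM in each KO library (coloured) and WT library (open) for 8 genes, with the group mean as a bar and the SD as whiskers (n = 3 each), on axes that start at 0. Espl1, Mybl2, Ncapd2, Kif11, Incenp and Prc1 have every KO library below every WT library, and Ccnb1 and Ccnb2 have every KO library above, but among the 8 only Espl1 passed the test.

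Among the kinases and cyclins of mitotic entry, both B-type cyclins, the partners that switch Cdk1 on, were highest in KO 2. Ccnb2 had 156, 108 and 121 CPM in KO 2, 9 and 22, against 93.6, 101 and 99.3 CPM in WT 1, 2 and 3 (log2 fold change 0.42, SE 0.14, edgeR adjusted p = 0.12). Ccnb1 had 178, 145 and 145 CPM in KO 2, 9 and 22, against 128, 133 and 134 CPM in WT 1, 2 and 3 (log2 fold change 0.27, SE 0.099, edgeR adjusted p = 0.15). Neither passed the test, although the groups did not overlap for either gene. Cyclin A2 (Ccna2), which acts earlier, in S phase and G2, had 249, 163 and 283 CPM in KO 2, 9 and 22, against 309, 326 and 323 CPM in WT 1, 2 and 3. All KO libraries were below WT, with KO 9 lowest.

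Cdk1, the kinase these cyclins bind, had 467, 337 and 410.2 CPM in KO 2, 9 and 22, against 428, 414 and 409 CPM in WT 1, 2 and 3. KO 2 was above WT and KO 9 below it, so the groups overlapped (log2 fold change -0.01, 95% interval -0.26 to 0.24). Cdc25b, a phosphatase that activates Cdk1, had 85.4, 49.3 and 81.1 CPM in KO 2, 9 and 22, against 110.5, 104 and 104 CPM in WT 1, 2 and 3 (log2 fold change -0.53, SE 0.21, edgeR adjusted p = 0.16). KO 9 was again the lowest. Plk1, a kinase of entry, spindle and cytokinesis, had 177, 157 and 152 CPM in KO 2, 9 and 22, against 154, 157 and 161 CPM in WT 1, 2 and 3. Cdc25c and Aurka (Aurora A, the kinase of spindle poles) had log2 fold changes of -0.11 and -0.12, and neither passed the test.

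None of the 6 checkpoint genes passed the test, and none had an unadjusted p under 0.05. Bub3, a scaffold that brings the Bub kinases to kinetochores, had 197, 164 and 147 CPM in KO 2, 9 and 22, against 203, 199.9 and 199.9 CPM in WT 1, 2 and 3 (log2 fold change -0.22, 95% interval -0.44 to -0.0015, edgeR adjusted p = 0.27). KO 2 lay near WT, with KO 22 lowest. Ttk, the Mps1 kinase at the head of the checkpoint, had 49.7, 35.8 and 48.0 CPM in KO 2, 9 and 22, against 37.2, 40.4 and 39.4 CPM in WT 1, 2 and 3. Mad2l1, the protein that captures Cdc20 while the checkpoint is on, had 79.3, 65.4 and 71.2 CPM in KO 2, 9 and 22, against 68.6, 70.9 and 73.7 CPM in WT 1, 2 and 3. The groups overlapped for Ttk and Mad2l1. Bub1, Bub1b (BubR1) and Mad1l1, the kinase, the Cdc20 inhibitor and the Mad2 anchor of the checkpoint, had log2 fold changes of -0.25, -0.03 and -0.11, and each was lowest in KO 9.

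The 8 centromere and kinetochore genes overlapped between groups in every case. Nuf2, of the Ndc80 complex that grips microtubules, had 79.4, 129 and 78.0 CPM in KO 2, 9 and 22, against 68.6, 79.0 and 72.7 CPM in WT 1, 2 and 3, so that KO 9 alone stood well above WT (log2 fold change 0.41, SE 0.21, edgeR adjusted p = 0.27). Its partners in that complex had log2 fold changes of -0.04 (Ndc80), -0.30 (Spc24) and -0.20 (Spc25). Cenpf, an outer kinetochore protein, had 79.2, 96.9 and 73.4 CPM in KO 2, 9 and 22, against 91.1, 96.4 and 93.8 CPM in WT 1, 2 and 3. Cenpe, a kinesin that moves chromosomes to the spindle equator, had 93.6, 108 and 127 CPM in KO 2, 9 and 22, against 116, 126 and 119 CPM in WT 1, 2 and 3. The lines thus took different orders in these genes. Cenpa, the histone that marks centromeres, was at 0.03 on the log2 fold change scale, and Knl1, the scaffold for Bub proteins, at -0.17 with a spread in WT of 11.7 to 23.7 CPM.

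Among the chromosomal passengers, which correct wrong attachments and act in cytokinesis, Incenp, the scaffold of the complex, had 155, 171 and 162 CPM in KO 2, 9 and 22, against 205, 209 and 198 CPM in WT 1, 2 and 3 (log2 fold change -0.29, SE 0.082, edgeR adjusted p = 0.084). Every KO library was below every WT library by more than the range within either group. Birc5 (survivin) had 114, 82.4 and 96.4 CPM in KO 2, 9 and 22, against 114.5, 117 and 111 CPM in WT 1, 2 and 3. KO 2 lay within WT and KO 9 was lowest. Aurkb (Aurora B), Cdca8 (borealin) and Sgo1 (shugoshin, a protector of centromeric cohesin) had log2 fold changes of -0.19, -0.13 and -0.24. Sgo2a, the other shugoshin, had 28.5, 36.4 and 29.1 CPM in KO 2, 9 and 22, against 27.8, 30.2 and 29.4 CPM in WT 1, 2 and 3.

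Beside Espl1 and Pttg1, the anaphase genes were the APC/C partners. Ube2c, the ubiquitin-conjugating enzyme that works with the APC/C, had 350.1, 237 and 337 CPM in KO 2, 9 and 22, against 407, 393 and 407 CPM in WT 1, 2 and 3 (log2 fold change -0.35, SE 0.16, edgeR adjusted p = 0.21). All KO libraries were below WT, with KO 9 far below the other lines. Cdc20, the activator of the APC/C, overlapped between groups at a log2 fold change of -0.04 (95% interval -0.21 to 0.13). Per kilobase of exon, Ube2c and Cdc20 had the highest levels of the 50 genes over the 6 libraries, 137 and 119.7 CPM per kilobase, and Knl1 had the lowest, 1.98.

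Among genes of chromosome structure, Ncapd2, a subunit of condensin I, had 183, 190.2 and 185 CPM in KO 2, 9 and 22, against 241, 226 and 232 CPM in WT 1, 2 and 3 (log2 fold change -0.29, SE 0.078, edgeR adjusted p = 0.073). The KO libraries were within 10 CPM of each other and below every WT library. Smc4, the ATPase core that pairs with Smc2, had 147, 114 and 203 CPM in KO 2, 9 and 22, against 203, 212 and 218 CPM in WT 1, 2 and 3, so that KO 22 was at the edge of WT while KO 9 was far below. Smc2, Ncapg and Ncaph, the rest of condensin I, had log2 fold changes of -0.09, -0.09 and -0.12. Top2a, the topoisomerase that untangles sister chromatids, had 569, 395 and 495 CPM in KO 2, 9 and 22, against 592, 604 and 605 CPM in WT 1, 2 and 3 (log2 fold change -0.27, SE 0.13, edgeR adjusted p = 0.26). Mki67, which coats mitotic chromosomes and is used as a marker of dividing cells, had 343, 374 and 362 CPM in KO 2, 9 and 22, against 371, 364 and 359.7 CPM in WT 1, 2 and 3. Its log2 fold change was 0.01, with a 95% interval of -0.15 to 0.17.

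Of the 9 genes of spindle motors and cytokinesis, Kif11, the kinesin Eg5 that pushes spindle poles apart, had 142, 137 and 154 CPM in KO 2, 9 and 22, against 178, 197 and 187 CPM in WT 1, 2 and 3 (log2 fold change -0.34, SE 0.090, edgeR adjusted p = 0.072). Prc1, which bundles the midzone microtubules of anaphase, had 169.7, 141 and 162 CPM in KO 2, 9 and 22, against 183, 205 and 206 CPM in WT 1, 2 and 3 (log2 fold change -0.30, SE 0.10, edgeR adjusted p = 0.12). Racgap1, a GTPase-activating protein of the midzone, had 306, 357 and 346 CPM in KO 2, 9 and 22, against 397, 409 and 409 CPM in WT 1, 2 and 3 (log2 fold change -0.24, SE 0.093, edgeR adjusted p = 0.17). The groups did not overlap for these 3 genes, and none passed the test. The other 6, the kinesins Kif20a, Kif23 and Kif2c, the spindle assembly factor Tpx2, the actin-binding anillin (Anln) and the cytokinesis factor Ect2, overlapped between groups, with log2 fold changes from -0.16 (Ect2) to 0.15 (Anln).

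Mybl2 and Foxm1 are the listed transcription factors. Mybl2 had 83.6, 56.1 and 58.6 CPM in KO 2, 9 and 22, against 111, 92.3 and 99.0 CPM in WT 1, 2 and 3 (log2 fold change -0.58, SE 0.17, edgeR adjusted p = 0.090). All KO libraries were below WT, KO 2 least so. Foxm1, the forkhead factor of G2 genes, had 99.2, 144 and 143 CPM in KO 2, 9 and 22, against 192, 148 and 92.0 CPM in WT 1, 2 and 3. The WT libraries alone spanned more than the KO libraries, so no difference in Foxm1 could be read (log2 fold change -0.13, 95% interval -0.69 to 0.44). Apart from Espl1, the genes named as not passing edgeR's test gave 3 calls in DESeq2, all lower in KO, for Kif11 (adjusted p = 0.035), Mybl2 (0.025) and Ncapd2 (0.043). Over all genes DESeq2 called 2590, against 1123 with edgeR.

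Summed over the 50 genes, the level was 7588, 6551 and 7418 CPM in KO 2, 9 and 22, against 8032, 8142 and 8052 CPM in WT 1, 2 and 3. This is 94.0%, 81.1% and 91.9% of the WT mean for KO 2, 9 and 22, and all KO libraries lay below all WT libraries. The sum weighs abundant genes most. Gene by gene and after TMM scaling, the median log2 level over the WT mean was -0.07, -0.28 and -0.01 in KO 2, 9 and 22. Below the WT mean were 32, 40 and 25 of the 50 genes in KO 2, 9 and 22. The anaphase genes summed to 86.5%, 72.4% and 84.9% of the WT mean in KO 2, 9 and 22, and the passenger and cohesion genes to 88.9%, 81.4% and 85.2%. The kinetochore genes were at 91.7%, 96.2% and 100.3% of the WT mean in KO 2, 9 and 22, the entry genes at 105.7%, 78.6% and 96.1%, and the checkpoint genes at 104.7%, 79.6% and 91.0%. The chromosome structure genes were at 89.0%, 77.2% and 89.7% of the WT mean in KO 2, 9 and 22, the spindle and cytokinesis genes at 94.6%, 86.0% and 94.7%, and the 2 transcription factors at 74.7%, 81.9% and 82.4%. The median coefficient of variation of the 50 genes was 15.2% over the KO libraries and 3.43% over the WT libraries, beside 19.9% and 7.21% for all tested genes.

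The lines differed by chromosome, and the listed genes were read against the other genes of their own chromosomes. KO 9 was the lowest of the KO lines for 31 of the 50 genes (5647 of all 16678 tested genes), and 40 of the 50 were below the WT mean there. Chromosome 2 holds 10 of them (Aurka, Bub1, Bub1b, Cdc25b, Knl1, Mybl2, Ncaph, Spc25, Tpx2 and Ube2c), and all 10 were lowest in KO 9. Their median there was -0.63 on the log2 scale over the WT mean, beside -0.25 for the other genes of chromosome 2 in KO 9. Those other genes had medians of -0.03 in KO 2 and 0.004 in KO 22. How many of them were lowest in KO 9 was not counted. Of the 40 listed genes on other chromosomes, KO 9 was lowest for 21. Among the 4 genes on chromosome 11, Pttg1 was above WT in KO 9 while Top2a, Aurkb and Birc5 were below it. Across the 50 genes, the log2 level over WT and the median of the other genes of the same chromosome had Pearson's r of 0.73, 0.63 and 0.57 in KO 2, 9 and 22 (Spearman's coefficient 0.71, 0.66 and 0.60). Genes on 1 chromosome share that median and all share the WT mean, so these values are a description.

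**Figure D3:**
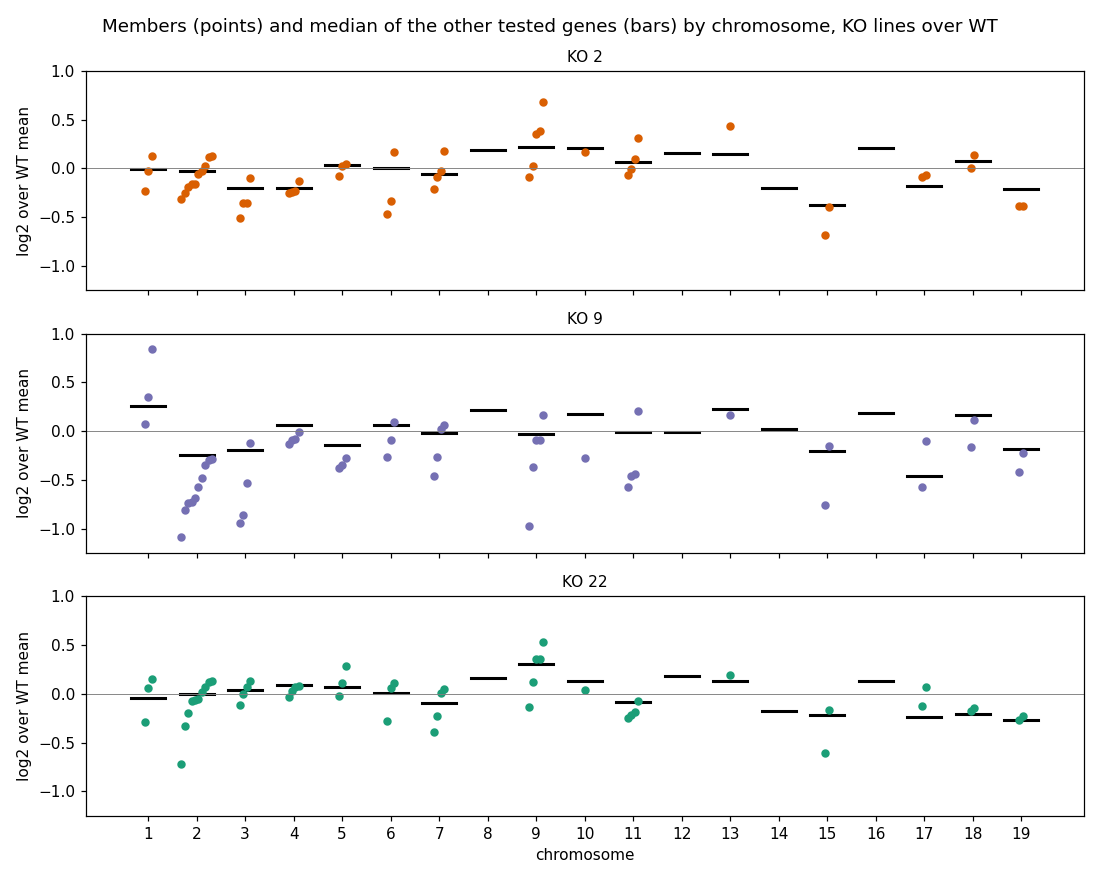
Log2 of the TMM-scaled level over the WT mean for the 50 genes (points) and the median of all other tested genes (bars) on each autosome, in KO 2 (top), KO 9 (middle) and KO 22 (bottom). In KO 9 the 10 genes of chromosome 2 lie below 0 with a median of -0.63, and the chromosome 15 genes lie below 0 in every line.

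The share of allele-assigned counts that came from genome 1 was compared next. The allelic ratio was tested for 49 of the 50 genes, since Ect2 had no allele-assigned counts, and it changed in 16 of them (32.7%), toward genome 1 in 9 and toward genome 2 in 7. The background was 23.0% of all 12984 genes tested for allele, 11.3% toward genome 1 and 11.7% toward genome 2. The listed genes averaged 425 to 20187 allele-assigned counts per library, while the background took in genes from 20 upward. The shares are thus not matched for allele counts, and a shift is harder to call in genes with few. The share did not overlap between groups in 26 of the 49, beside 43.7% of all genes tested. The genes that moved toward genome 1 were Cenpf, Sgo2a, Smc4, Ccna2, Cenpe, Foxm1, Mad2l1, Ncapd2 and Ccnb2. Those that moved toward genome 2 were Plk1, Mki67, Prc1, Bub3, Incenp, Kif11 and Ccnb1.

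The 4 listed genes on chromosome 7 all moved toward genome 2. Mki67 took 35.4%, 34.7% and 33.9% of its allele-assigned counts from genome 1 in KO 2, 9 and 22, against 61.6%, 62.0% and 62.1% in WT 1, 2 and 3 (log2 ratio -1.61, SE 0.11, edgeR adjusted p = 0.0014). Prc1 took 39.8%, 38.0% and 38.4% in KO 2, 9 and 22, against 66.5%, 66.0% and 66.2% in WT 1, 2 and 3. Bub3 took 25.9%, 28.2% and 35.9% in KO 2, 9 and 22, against 68.4%, 69.2% and 61.8% in WT 1, 2 and 3. Plk1, which is low on genome 1 in both groups, took 12.5%, 12.6% and 15.1% in KO 2, 9 and 22, against 25.1%, 26.9% and 23.7% in WT 1, 2 and 3. Chromosome 7 as a whole was at 31.8% in the KO group and 57.7% in the WT group, a shift in the same direction. Mki67 thus differed in allelic ratio, while its log2 fold change in level was 0.01.

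On chromosome 6, Ncapd2 took 56.2%, 57.3% and 56.5% from genome 1 in KO 2, 9 and 22, against 31.6%, 31.3% and 30.8% in WT 1, 2 and 3 (log2 ratio 1.53, SE 0.11, edgeR adjusted p = 0.0014). In counts, genome 2 of Ncapd2 gave 3700, 3823 and 3790 in KO 2, 9 and 22, against 7945, 7446 and 7767 in WT 1, 2 and 3, while genome 1 gave 4747, 5120 and 4931 in KO 2, 9 and 22, against 3666, 3391 and 3453 in WT 1, 2 and 3. Mad2l1 took 84.4%, 88.2% and 77.3% in KO 2, 9 and 22, against 44.9%, 55.7% and 13.4% in WT 1, 2 and 3, and its WT libraries stood far apart. Foxm1 took 70.0%, 71.5% and 77.0% in KO 2, 9 and 22, against 31.1%, 58.5% and 34.9% in WT 1, 2 and 3, and WT 2 stood apart from the other WT libraries. Chromosome 6 as a whole stood at 62.1% in the KO group and 36.2% in the WT group.

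On chromosome 1, Cenpf took 65.5%, 71.5% and 65.6% in KO 2, 9 and 22, against 39.9%, 42.6% and 41.0% in WT 1, 2 and 3. Sgo2a took 73.3%, 74.7% and 72.9% in KO 2, 9 and 22, against 41.9%, 46.1% and 47.9% in WT 1, 2 and 3. Chromosome 1 as a whole was at 61.5% in the KO group and 36.8% in the WT group. On chromosome 3, at 69.5% in KO and 53.1% in WT, Cenpe took 68.1%, 65.9% and 74.2% in KO 2, 9 and 22, against 50.5%, 49.6% and 51.5% in WT 1, 2 and 3. Smc4 took 65.6%, 65.1% and 71.0% in KO 2, 9 and 22, against 50.9%, 51.3% and 48.0% in WT 1, 2 and 3. Ccna2 lay far below its chromosome in both groups, with 23.0%, 23.2% and 26.0% in KO 2, 9 and 22, against 17.5%, 16.8% and 16.8% in WT 1, 2 and 3.

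On chromosome 19, at 49.2% in KO and 69.5% in WT, Kif11 took 55.7%, 53.3% and 54.0% in KO 2, 9 and 22, against 75.7%, 74.9% and 76.0% in WT 1, 2 and 3. Incenp took 47.9%, 42.7% and 46.8% in KO 2, 9 and 22, against 60.02%, 73.1% and 71.3% in WT 1, 2 and 3. The cyclins B were the exceptions in location. Ccnb1 took 53.7%, 52.4% and 51.1% in KO 2, 9 and 22, against 66.5%, 64.5% and 64.7% in WT 1, 2 and 3 (log2 ratio -0.77, SE 0.13, edgeR adjusted p = 0.0078), while chromosome 13 as a whole was at 51.3% in KO and 54.2% in WT. In Ccnb1 the genome 2 counts were 2001, 1802 and 1808 in KO 2, 9 and 22, against 1105, 1271 and 1153 in WT 1, 2 and 3, and the genome 1 counts of the groups overlapped. Ccnb2 took 40.1%, 53.8% and 38.8% in KO 2, 9 and 22, against 28.4%, 28.5% and 29.4% in WT 1, 2 and 3, and chromosome 9 was at 42.4%, 56.7% and 45.9% in KO 2, 9 and 22, against 36.3% to 36.9% in WT.

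Chromosomes 1, 3, 6, 7, 8, 10, 16 and 19 were those where the KO lines lay within 10 percentage points of each other and each over 5 points from the WT mean, a grouping made after the values were seen. Of the 16 listed genes tested there, 14 changed in allelic ratio, beside 50.7% of all genes tested there. Of the 33 listed genes tested on the other 11 autosomes, 2 changed (Ccnb1 and Ccnb2), beside 4.67% of all genes tested there. These shares too were not matched for allele counts. Across the 49 genes, the change in genome 1 share from the WT mean and that of the other genes of the chromosome had Pearson's r of 0.92, 0.94 and 0.95 in KO 2, 9 and 22 (Spearman's coefficient 0.89, 0.89 and 0.95), with the same sign in 40, 43 and 44 genes. Points of 1 chromosome share its value, so these are descriptions. The calls of Ccna2, Ccnb2, Foxm1, Incenp and Mad2l1 were lost in at least 1 of the fits that left out a library. Without KO 9 the calls were 24 in place of 16. Calls over all genes also shifted when a library was left out, as given below. Whether the rise is particular to the listed genes was not tested.

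**Figure D4:**
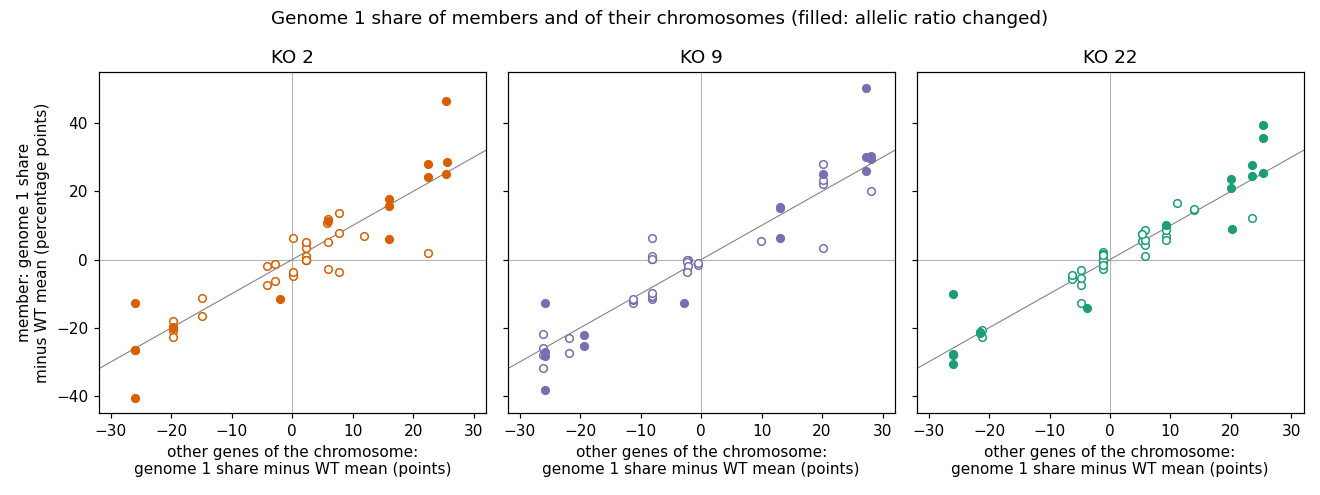
Change in genome 1 share from the WT mean, in percentage points, of each of 49 genes (vertical axis) against that of the other genes of its chromosome (horizontal axis) in KO 2, KO 9 and KO 22; the grey diagonal marks equal change and filled points are the 16 genes whose allelic ratio changed. Many points lie near the diagonal, and Mad2l1, Plk1 and Bub3 are among the filled points that lie off it.

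Some shifts were not shared by all lines. Chromosome 11 was at 31.6% in KO 9, against 57.9% in KO 2, 63.5% in KO 22 and 57.7% over WT. There Pttg1 was at 29.5%, Top2a and Aurkb at 33.1% and Birc5 at 41.2% in KO 9, while KO 2 and KO 22 lay between 54.7% and 71.9%, against 58.2% to 64.4% in WT for the 4 genes. None of the 4 passed the allelic test, which compares the lines together, and without KO 9 Birc5 did (log2 ratio 0.49, edgeR adjusted p = 0.023). Their levels did not share a direction in KO 9, where Pttg1 stood above WT and the other 3 below. On chromosome 4, at 33.4% in KO 2, Cdc20 took 33.0%, 53.5% and 48.4% in KO 2, 9 and 22, against 54.0%, 53.8% and 53.5% in WT 1, 2 and 3. On chromosome 15, KO 2 and KO 22 were below WT while KO 9 was near it: Espl1 took 45.3%, 54.9% and 36.0% in KO 2, 9 and 22, against 56.1%, 56.5% and 57.2% in WT 1, 2 and 3, and Racgap1 took 39.2%, 54.9% and 33.2% in KO 2, 9 and 22, against 57.1%, 55.6% and 54.8% in WT 1, 2 and 3. Racgap1 also passed the allelic test without KO 9 (log2 ratio -1.16, edgeR adjusted p = 0.0045), as Espl1 did.

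On chromosome 2, 4 of the genes had nearly all counts on a single genome in all 6 libraries. Cdc25b, Spc25 and Ncaph took 99.8% or more of their counts from genome 1 in KO and WT, and Bub1b took 0.39% to 0.79% in KO libraries and 0.48% to 0.59% in WT libraries. Among autosomal genes, 7.59% had a WT mean under 5% or over 95%, and 4 of the 49 listed genes did. Genes within 500000 bases had medians of the same kind in KO and WT, 99.9% in both groups around Cdc25b (18 genes), wholly genome 1 around Spc25 (3 genes), 99.9% around Ncaph (15 genes), and 5.34% in KO and 5.23% in WT around Bub1b (16 genes). Single neighbours differed: their WT means ran from 0% to 100% around Cdc25b, 78.7% to 100% around Ncaph and 0% to 60.9% around Bub1b. On chromosome 1, Nuf2 took 21.6%, 39.7% and 31.7% in KO 2, 9 and 22, against 23.6%, 21.1% and 14.2% in WT 1, 2 and 3, and its 4 neighbours had a median of 11.8% in KO and 5.46% in WT. Whether the strain letters there were read correctly was not tested.

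Other genes of mitosis were read by list, beside the 3.54% of all tested genes called higher, the 3.19% called lower and the 26.3% with an unadjusted p under 0.05. Of the 16 further APC/C genes 1 rose, Cdc16, a scaffold subunit, at 102, 122 and 123 CPM in KO 2, 9 and 22, against 80.5, 88.0 and 83.4 CPM in WT 1, 2 and 3 (log2 fold change 0.49, SE 0.11, edgeR adjusted p = 0.049). Of the 13 genes of cohesin and condensin II 1 fell, the condensin subunit Ncaph2, at 335, 303 and 345 CPM in KO 2, 9 and 22, against 478, 451 and 460.4 CPM in WT 1, 2 and 3 (log2 fold change -0.47, SE 0.089, edgeR adjusted p = 0.035). Of the 26 further centromere genes 1 fell, Cenpm, at 47.6, 41.4 and 38.3 CPM in KO 2, 9 and 22, against 61.5, 59.3 and 64.1 CPM in WT 1, 2 and 3 (log2 fold change -0.51, SE 0.10, edgeR adjusted p = 0.041). Ncaph2 and Cenpm lie on chromosome 15, as Espl1 does. DESeq2 called 3 of the APC/C genes higher and 2 of the cohesin and condensin II genes lower. Of the centromere genes it called 4 lower and 1 higher, beside 2590 calls over all genes. No gene passed edgeR's test among 14 entry inhibitors and exit regulators, where 7 had an unadjusted p under 0.05 and DESeq2 called 1 lower. None passed edgeR's test among 18 other spindle genes, where 2 had an unadjusted p under 0.05 and DESeq2 called 1 higher. The smallest p-values of these lists belonged to Bora (log2 fold change -0.36) and Ckap2 (0.47). The median log2 fold changes of these 5 lists were 0.02, -0.17, -0.00, -0.17 and -0.08.

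Of 11 genes of the DREAM and E2F system 2 rose, beside 3.54% of all tested genes, and the median log2 fold change of the list was -0.05. E2f7, a repressor of the E2F family, had 98.7, 92.9 and 91.8 CPM in KO 2, 9 and 22, against 76.1, 65.6 and 66.6 CPM in WT 1, 2 and 3 (log2 fold change 0.47, SE 0.096, edgeR adjusted p = 0.040). Rbl2, the pocket protein p130, had 41.1, 43.1 and 38.8 CPM in KO 2, 9 and 22, against 29.4, 32.3 and 30.5 CPM in WT 1, 2 and 3 (log2 fold change 0.45, SE 0.092, edgeR adjusted p = 0.042). E2f8, of the same list, went the other way and did not pass edgeR's test. It was called lower with DESeq2 (log2 fold change -0.60, adjusted p = 0.0069) and limma-voom (-0.60, adjusted p = 0.049). It was also called lower in edgeR without KO 9 or without KO 22. Of 18 S phase genes 2 fell, beside 3.19% of all tested genes, and the median log2 fold change of the list was -0.16. Uhrf1, which maintains DNA methylation at replication, had 241, 164 and 179.9 CPM in KO 2, 9 and 22, against 322, 313 and 323 CPM in WT 1, 2 and 3 (log2 fold change -0.68, edgeR adjusted p = 0.044). The nucleotide enzyme Tyms had 64.3, 68.6 and 71.6 CPM in KO 2, 9 and 22, against 94.8, 117 and 94.0 CPM in WT 1, 2 and 3 (log2 fold change -0.55, edgeR adjusted p = 0.045). Of 10 CDK inhibitors and cyclins of G1, with a median log2 fold change of 0.06, 1 rose, Cdkn2b (p15), an inhibitor of Cdk4 and Cdk6, to 103, 106 and 109 CPM in KO 2, 9 and 22, against 73.0, 84.3 and 77.1 CPM in WT 1, 2 and 3 (log2 fold change 0.47, SE 0.089, edgeR adjusted p = 0.035). The log2 fold changes of these 10 ran from -0.60 to 2.19, with neither end passing edgeR's test, and 3 had an unadjusted p under 0.05. DESeq2 called 2 of them higher, among them Cdkn1b (log2 fold change 0.67, adjusted p = 0.017), and none lower. Among the S phase genes DESeq2 called 3 lower and none higher. The calls of the 8 genes past edgeR's test in these lists were lost without each WT library in turn, as that of Espl1 was. They were also lost with no filter on low counts, where that of Espl1 held. With chromosome medians taken out all but that of Cdkn2b were lost. Without KO 9 the calls of Cdc16, Cenpm, E2f7, Rbl2, Uhrf1 and Tyms were lost. Those of Cdc16 and Uhrf1 were also lost without KO 22, and those of E2f7 and Tyms without KO 2 and with limma-voom.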

How the data were processed

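RNA-seq of 6 libraries was analysed, 3 KO and 3 WT. Per the submitters' processing notes, reads were handled with StringTie 1.3.3, HISAT2 2.1.0, DESeq2 1.32.0, Trimmomatic 0.36, FastQC 0.11.3 and SAMtools 0.1.19, and builds mm10 and GRCm38 are named. The sources used here give no settings, strand or annotation. Whole-number estimated counts were deposited by the authors for genes and transcripts, and for genes split by genome. Among the split counts, the 6 columns of reads assigned to neither genome were not used. Without a stated strand setting, reads of overlapping or antisense genes cannot be told apart. KO columns carry line numbers, and either of the labelled sets of KO libraries may be behind them. The SIRT7-HY and add-back libraries were not analysed here.

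CPM is counts per 1000000 gene counts. KO and WT were compared with edgeR 4.0.16 in R 4.3.3 (TMM, default low-count filter, quasi-likelihood test, Benjamini-Hochberg, threshold 0.05). The standard error of a log2 fold change is its size divided by the square root of F, and intervals are 1.96 of them on either side. This normal approximation is narrower than an interval from the test itself. That of Bub3 thus leaves out 0 although its unadjusted p was not under 0.05. Allelic ratios used an edgeR model with library, allele and allele by group terms, where genes averaged 20 or more allele-assigned counts per library. DESeq2 1.42.0, limma 3.58.1 and leaving out each library were alternatives. Levels per line over WT used TMM-scaled log2 CPM with a prior count of 2. Genes were placed with GENCODE M21. The methods were run on simulated data that gave both groups the same spread. How they perform under the unequal spread of KO and WT was not tested.

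The genes and lists were chosen with earlier results of these data known. Named with each library's value were genes past either test and the 5 with the largest differences in genome 1 share. So were, in each of the 8 roles, the 2 genes with the smallest p and the most abundant gene. Of the further lists, only genes past edgeR's test were given with each library's value, though up to 3 per list had been planned. Other genes given with values were chosen after these were seen. The depth was 61065582 to 61506413 counts per library.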

Additional observations from a re-analysis of the deposited data

How the results depend on the processing

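Genes called in KO against WT were 1123, against 2590 with DESeq2, 396 with no filter on low counts and 45 to 2482 with a library left out. Of the 50 genes, those called lower were 1, against 4 with DESeq2, 0 with chromosome medians taken out and 0 to 3 with a library left out. Genes called for allelic ratio were 2992, against 1710 to 3822 with a library left out, and of the 49 genes 16, against 12 to 24. The allelic log2 ratio of Birc5, -0.09, lay between -0.44 and 0.49 with a library left out, the highest (edgeR adjusted p = 0.023) without KO 9, the line whose chromosome 11 share stands apart. Of the comparisons of a value with its alternatives, 720 kept their side of the threshold, including any that changed sign with neither value past it. In 30 only the alternative passed, and in 74 only the main setting. In 1, Birc5 without KO 9, only the alternative passed, with the opposite sign. A fit with limma on log2 CPM was added after the data were seen. No paired analysis was possible because KO columns are numbered 2, 9 and 22 and WT columns 1, 2 and 3, which share 1 number. The comparison with SIRT7 added back was not run. With 3 lines, small differences may be missed.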

Other observations

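The transcript table gave the same most abundant transcript in KO and WT for 46 of the 50 genes, and 26 had over 90% of their counts in 1 transcript in both groups. These counts are estimates divided among overlapping transcripts, no test was made, and the genes that follow were chosen after their values were seen. Spc24-201, a coding transcript of the Ndc80 complex gene Spc24, held 20.8%, 66.9% and 70.9% of the gene's counts in KO 2, 9 and 22, against 21.0%, 22.7% and 22.3% in WT 1, 2 and 3. Its retained-intron transcript Spc24-202 held 47.5%, 3.05% and 2.18% in KO 2, 9 and 22, against 55.8%, 50.8% and 55.9% in WT 1, 2 and 3, so KO 2 lay with WT and apart from the other lines.

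Incenp-201 held 87.8%, 7.67% and 9.23% of the Incenp counts in KO 2, 9 and 22, against 6.45%, 6.74% and 6.47% in WT 1, 2 and 3, so KO 2 alone stood apart. The retained-intron transcript Ect2-201 held 2.05%, 1.95% and 2.15% in KO 2, 9 and 22, against 48.9%, 8.95% and 26.4% in WT 1, 2 and 3, with a wide spread in WT. The separase transcript Espl1-201 held 25.5%, 22.4% and 11.7% in KO 2, 9 and 22, against 11.7%, 63.9% and 9.79% in WT 1, 2 and 3, where WT 2 stood apart.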
